A study of Mus musculus with 5 samples.

Results

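DNA replication and mitosis genes are expressed mainly in cells that are dividing, and their RNA level in a sorted population is commonly read as a measure of how many of its cells are in cycle. The set described here holds 41 genes chosen by name, 19 of the S phase (the period of DNA copying) and 22 of G2 and mitosis (G2/M, the preparation for division and the division itself). Of these, 39 were found by their symbol among the 38130 entries of the files, 17 in the S phase set and 22 in the G2/M set. All 39 passed the filter on low values, a mean of 1 scaled FPKM or more across libraries, as did 11296 genes in all, and Gins2 and Cdt1 are not analysed here. The rule uses names and no measured value, but the members were chosen with earlier results of these data known.

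The genes were measured by RNA sequencing of CD4+YFP+ regulatory T (Treg) cells, a CD4 lineage that depends on the factor Foxp3 and holds immune responses in check. There were 5 libraries from C57BL/6 mice. The KO library came from Foxp3Cre-YFP / malt1fl/fl mice at 21 d, in which, per the labels, Malt1 is deleted in Treg cells, and its control was a wild-type (WT) library at 21 d. The 2 KI libraries came from Foxp3Cre-YFP / malt1fl/C472A mice at 6 weeks, with 1 floxed and 1 substituted Malt1 allele and, per the labels, inhibited Malt1 protease activity in Treg cells. Their control was 1 WT library at 6 weeks. All groups, the WT libraries included, carry the Cre and YFP driven by Foxp3, so sorting and deletion both depend on that promoter. Malt1 encodes a paracaspase that relays antigen receptor signals to NF-kB. Nothing in the labels says that each library is its own animal, and the p-values then measure only the spread between these libraries, possibly a technical one.

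A cell entering S phase loads the Mcm2 to Mcm7 helicase ring on replication origins, makes deoxynucleotides and copies its DNA with the sliding clamp Pcna. Many of these genes are switched on by E2F transcription factors. The genes of G2 and mitosis, among them the cyclins, Cdk1, the Aurora and Polo kinases and the kinesin motors, come on later, through the MuvB complex with B-Myb and Foxm1, which acts at a promoter element named CHR that often lies near a CCAAT box. Treg cells are known for a high share of dividing cells at steady state when compared with other CD4 T cells, and RNA of S and of G2/M genes is a common measure of that share. In bulk RNA, more cells in cycle and more RNA of these genes per cell cannot be told apart.

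The sequences of 3 members of each set show what these elements look like in place, and the shares of promoters that hold them follow after the sequences. They are RefSeq promoters of build GRCm38.p6, from 250 bases before to 50 bases after the transcription start, given 5′ to 3′ on the strand of the gene. They are the members with the highest mean level whose first listed promoter holds the element of its set. In the 3 S phase promoters, capitals mark matches to an E2F element (TTTCCCGC, TTTCGCGC, TTTGCCGC or TTTGGCGC on either strand). Mcm6 lies at chr1:128359656-128359955, minus strand, with 3 matches, of which 2 overlap and read as 1 run of capitals. Mcm7 lies at chr5:138171834-138172133, minus strand, and Mcm3 at chr1:20820263-20820562, minus strand, with 2 matches each. Mcm7 also holds a CHR match. The second E2F match of Mcm7 shares a base with a CCAAT box, the only overlap between different motifs among the members.
Mcm6: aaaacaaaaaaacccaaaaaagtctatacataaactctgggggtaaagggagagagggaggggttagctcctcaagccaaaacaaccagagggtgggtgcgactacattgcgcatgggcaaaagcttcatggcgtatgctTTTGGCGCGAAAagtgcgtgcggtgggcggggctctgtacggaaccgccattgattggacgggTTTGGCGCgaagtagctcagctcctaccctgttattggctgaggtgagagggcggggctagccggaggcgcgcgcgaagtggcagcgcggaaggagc
Mcm7: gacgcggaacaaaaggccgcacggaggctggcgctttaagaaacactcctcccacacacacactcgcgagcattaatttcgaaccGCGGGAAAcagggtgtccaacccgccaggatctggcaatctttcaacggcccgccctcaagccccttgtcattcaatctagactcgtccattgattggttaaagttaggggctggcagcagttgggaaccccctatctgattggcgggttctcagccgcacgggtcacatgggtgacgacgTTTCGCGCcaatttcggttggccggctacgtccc
Mcm3: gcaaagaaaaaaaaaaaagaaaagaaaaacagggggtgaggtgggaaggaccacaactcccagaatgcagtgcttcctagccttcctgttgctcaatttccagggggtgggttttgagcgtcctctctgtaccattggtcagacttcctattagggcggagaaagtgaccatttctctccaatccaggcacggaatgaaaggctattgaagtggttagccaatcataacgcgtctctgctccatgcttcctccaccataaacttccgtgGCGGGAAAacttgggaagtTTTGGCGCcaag

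In the 3 G2/M promoters, capitals mark matches to a CHR element (TTTGAA or TTCGAA on either strand). Top2a lies at chr11:99024140-99024439, minus strand, with 4 matches. Ube2c lies at chr2:164769679-164769978, plus strand, with 1 match, 29 bases before the start. Mki67 lies at chr7:135716330-135716629, minus strand, with 2 matches. Each of the 6 promoters also holds a CCAAT box on either strand.
Top2a: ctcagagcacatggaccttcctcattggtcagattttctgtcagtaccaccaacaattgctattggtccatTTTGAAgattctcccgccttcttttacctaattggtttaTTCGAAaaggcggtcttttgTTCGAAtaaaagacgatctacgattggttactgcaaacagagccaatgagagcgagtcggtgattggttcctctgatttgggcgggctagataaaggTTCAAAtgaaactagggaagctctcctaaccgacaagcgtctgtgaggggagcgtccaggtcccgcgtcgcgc
Ube2c: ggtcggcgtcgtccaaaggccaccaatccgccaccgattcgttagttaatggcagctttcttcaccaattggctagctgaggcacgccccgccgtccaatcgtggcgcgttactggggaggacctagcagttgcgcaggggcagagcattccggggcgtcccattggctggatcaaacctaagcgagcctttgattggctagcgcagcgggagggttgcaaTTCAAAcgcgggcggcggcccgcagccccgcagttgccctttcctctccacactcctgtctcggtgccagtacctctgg
Mki67: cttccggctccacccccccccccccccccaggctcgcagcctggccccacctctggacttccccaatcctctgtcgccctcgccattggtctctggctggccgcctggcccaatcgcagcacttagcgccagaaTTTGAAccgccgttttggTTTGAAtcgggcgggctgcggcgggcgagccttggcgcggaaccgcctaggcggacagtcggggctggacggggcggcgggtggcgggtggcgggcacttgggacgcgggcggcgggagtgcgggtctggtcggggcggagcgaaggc

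Promoters were matched by symbol for 33 of the 39 members, and Aurkb, Ccna2, Foxm1, Kif20a, Mcm4 and Tpx2 had no match. With the first listed promoter of each gene, a CHR match was found in 13 of 17 G2/M members (76.5%) and in 4 of 16 S phase members (25%), against 13.7% of the promoters of 7463 tested genes. All 13 of the G2/M promoters with a CHR match also held a CCAAT box, a pair found in 6.06% of the promoters of tested genes. An E2F match was found in 1 of 17 G2/M members (5.88%), Cdk1, and in 5 of 16 S phase members (31.2%), against 4.54% of the promoters of tested genes. The 5 were Mcm3, Mcm5, Mcm6, Mcm7 and Cdc6. The G2/M members with neither a CHR nor an E2F match were Birc5, Ccnb1, Cenpe and Nusap1. A match is a run of letters in this window and no more.

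**Figure D1:**
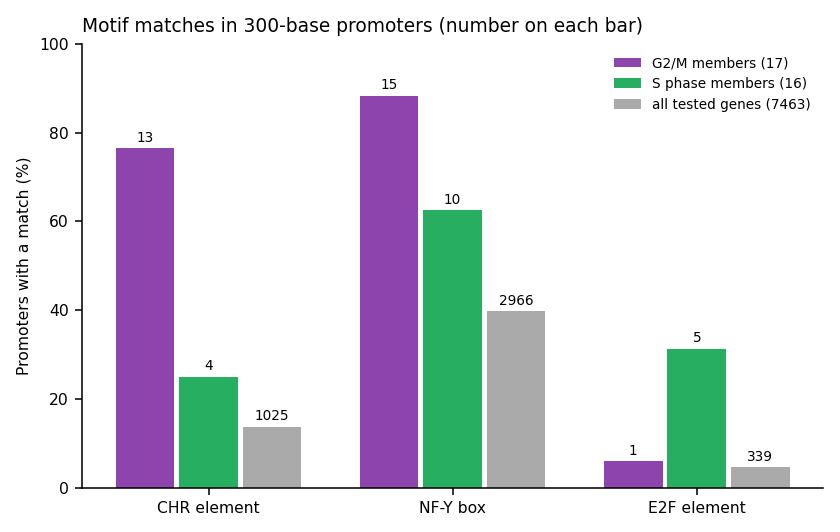
Share of promoters (%, 300 bases each) with a match to a CHR element, a CCAAT box (drawn as NF-Y box, after the factor that binds it) or an E2F element, for 17 G2/M members, 16 S phase members and 7463 tested genes; the number on a bar is the number of promoters with a match. The CHR bar is at 76.5% in the G2/M members, 25% in the S phase members and 13.7% in all tested genes, and the E2F bar is highest in the S phase members, at 31.2%.

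Values are scaled FPKM, the deposited FPKM (fragments for each kilobase of transcript, relative to all mapped fragments) divided by 1 factor per library, and so are per transcript length. Counts were not used here, and the depth estimated from the error bounds in the files was 7.66 M fragments (M for mega) in KO and 27.8 M in WT at 21 d, and 23.97 and 23.5 M in KI and 6.75 M in WT at 6 weeks. Depth thus differs within both age-matched comparisons, and KO with WT at 6 weeks, and KI with WT at 21 d, are the comparisons at like depth. Malt1 had 17.6 scaled FPKM in KO and 26.97 in WT at 21 d, and 55.9 and 37.8 in KI and 15.2 in WT at 6 weeks. A gene-level value does not show which exons were read, so it does not check the KO label. All 6 Treg markers and all 5 T cell markers were above 1 scaled FPKM in every library. The Treg markers summed to 383 in KO and 784 in WT at 21 d, and to 895 and 825 in KI and 423 in WT at 6 weeks. Foxp3 had 30.5 in KO and 70.7 in WT at 21 d, and 70.1 and 73.6 in KI and 39.5 in WT at 6 weeks. Myeloid and erythroid markers were highest in WT at 6 weeks, where 9 of 10 and 5 of 6 were at 1 or more, with sums of 148 and 55.8. Plasmacytoid dendritic cell markers summed to 47.2 in KO and 40.7 in WT at 21 d, and to 32.4 and 37.0 in KI and 99.1 in WT at 6 weeks. B cell markers summed to 6.38 in KO and 16.3 in WT at 21 d, and to 3.89 and 2.96 in KI and 21.8 in WT at 6 weeks, and so were lower in the mutant than in the WT library at both ages, with none of the 5 at 0. Their part in the results was not tested.

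Across the 39 members the highest value was always in KI replicate 2 or in KO. KI replicate 2 was the highest of the 5 libraries for 14 of 17 S phase members and 20 of 22 G2/M members, while it was the highest for 20.7% of all tested genes. KO was the highest for the other 5, Tyms, Tk1, Chaf1b, Cdk1 and Cdc20, and for 24.6% of all tested genes. The lowest library was WT at 21 d for 24 members (15.7% of all tested genes), KI replicate 1 for 12 (21.7%) and WT at 6 weeks for 3 (17.5%). KI replicate 1 was the lowest for 11 S phase members but for only 1 G2/M member, Kif20a.

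**Figure D2:**
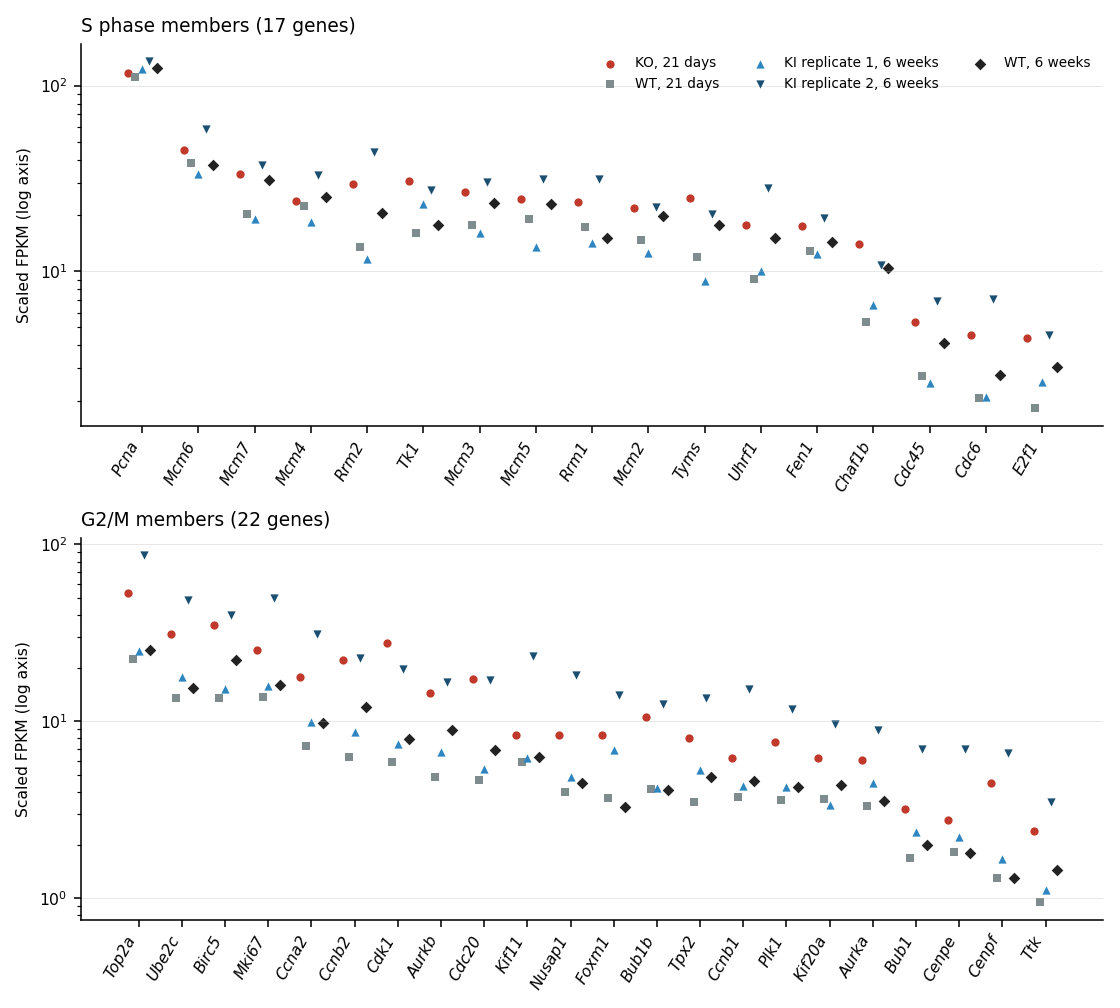
Scaled FPKM of each member (log axis) in the 5 libraries, for 17 S phase members above and 22 G2/M members below, ordered by mean level; each point is 1 library. Points of KI replicate 2 and KO lie above the other 3 libraries for most G2/M members, with Top2a at 86.8 and 53.4, while Pcna lies between 112 and 135 in all 5 libraries.

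The 6 subunits of the Mcm helicase, which unwinds DNA at the fork, differed modestly between libraries. Mcm6 had 44.8 scaled FPKM in KO and 38.2 in WT at 21 d, and 33.5 and 58.3 in KI and 37.5 in WT at 6 weeks. Mcm7 had 33.3 in KO and 20.4 in WT at 21 d, and 19.2 and 37.3 in KI and 31.0 in WT at 6 weeks. The KI libraries lay on both sides of their WT library for both genes. Mcm4 had 23.9 in KO and 22.5 in WT at 21 d, and 18.3 and 33.1 in KI and 25.3 in WT at 6 weeks. Mcm2, Mcm3 and Mcm5 had 22.05 to 26.8 in KO and 14.7 to 19.02 in WT at 21 d, and 12.6 to 31.6 in KI and 19.9 to 23.3 in WT at 6 weeks. All 6 subunits were above their WT library in KO, by 0.08 to 0.68 on the scale log2(scaled FPKM + 1), which is the scale of every log2 difference given here. All 6 were below the WT library in KI replicate 1 (-0.73 to -0.16) and above it in KI replicate 2 (0.15 to 0.62). Mcm7 overlaps Cops6 and Ap4m1 on the other strand, and without strand their reads cannot be told apart.

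The genes of origin loading and firing were highest in KI replicate 2 and next highest in KO. Cdc6, which loads the helicase, had 4.54 scaled FPKM in KO and 2.09 in WT at 21 d, and 2.101 and 7.06 in KI and 2.75 in WT at 6 weeks. Cdc45, which joins the helicase when an origin fires, had 5.35 in KO and 2.75 in WT at 21 d, and 2.51 and 6.94 in KI and 4.12 in WT at 6 weeks. Against WT at 6 weeks the log2 differences in KI replicates 1 and 2 were -0.27 and 1.10 for Cdc6 and -0.54 and 0.63 for Cdc45. The KI libraries thus lay on both sides of that WT library. Cdc45 overlaps Ufd1l, which has a mean of 30.6 scaled FPKM, on the other strand.

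Of the 4 enzymes of deoxynucleotide supply, Rrm2 varied most. Rrm2, the cell cycle regulated subunit of ribonucleotide reductase, had 29.4 scaled FPKM in KO and 13.6 in WT at 21 d, and 43.8 in KI replicate 2, 11.7 in KI replicate 1 and 20.6 in WT at 6 weeks. Its value in KI replicate 2 was 3.75-fold that in KI replicate 1, and in KO it was 2.16-fold that in WT at 21 d. Rrm1, the large subunit, had 23.6 in KO and 17.3 in WT at 21 d, and 14.2 and 31.6 in KI and 15.1 in WT at 6 weeks. Tyms, which makes thymidylate, had 24.7 in KO and 11.9 in WT at 21 d, and 8.86 and 20.2 in KI and 17.7 in WT at 6 weeks. Tk1, which salvages thymidine, was the only S phase member above WT at 6 weeks in both KI libraries. Tk1 had 30.8 in KO and 16.2 in WT at 21 d, and 23.0 and 27.4 in KI and 17.7 in WT at 6 weeks, and it overlaps Afmid on the other strand.

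Of the remaining S phase genes, Pcna differed least and Chaf1b most between KO and WT. Pcna had 117 scaled FPKM in KO and 112 in WT at 21 d, and 122 and 135 in KI and 125 in WT at 6 weeks, with bounds that overlapped in both WT comparisons. Chaf1b, a subunit of the factor that places histones on new DNA, had 14.1 in KO and 5.36 in WT at 21 d, and 6.62 and 10.8 in KI and 10.4 in WT at 6 weeks. Its 2.63-fold difference between KO and WT at 21 d was the largest of the S phase set. Uhrf1, which guides maintenance DNA methylation, had 17.8 in KO and 9.10 in WT at 21 d, and 10.04 and 27.98 in KI and 15.2 in WT at 6 weeks. Fen1, the flap endonuclease of lagging strand synthesis, had 17.6 in KO and 12.8 in WT at 21 d, and 12.5 and 19.5 in KI and 14.3 in WT at 6 weeks, and it overlaps the more abundant 1810006K21Rik, with a mean of 59.7, on the other strand. E2f1, an activating E2F factor, had 4.38 in KO and 1.83 in WT at 21 d, and 2.53 and 4.52 in KI and 3.06 in WT at 6 weeks. In all 5 genes WT at 6 weeks lay between the KI libraries.

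In the G2/M set the mitotic kinase Cdk1 and its cyclins were above WT in KO, Cdk1 most of all. Cdk1 (chromosome 10, 69336635 to 69352938, GRCm38) had 27.8 scaled FPKM in KO and 5.91 in WT at 21 d, and 7.44 and 19.6 in KI and 7.95 in WT at 6 weeks. Its log2 difference of 2.06 between KO and WT at 21 d was the largest of all 39 members, and the bounds of 21.96 to 33.6 in KO lay above the upper bound of 7.33 in WT. Ccnb2, a B-type cyclin, had 22.3 in KO and 6.32 in WT at 21 d, and 8.72 and 22.8 in KI and 12.0 in WT at 6 weeks. Ccna2, the cyclin of S phase and G2, had 17.9 in KO and 7.23 in WT at 21 d, and 9.96 and 31.0 in KI and 9.80 in WT at 6 weeks. Ccnb1 differed less in KO, with 6.21 in KO and 3.74 in WT at 21 d, and had 4.32 and 15.2 in KI and 4.60 in WT at 6 weeks. The KO library led for Cdk1, and KI replicate 2 for all 3 cyclins. Ccna2 overlaps Exosc9 on the other strand.

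The anaphase-promoting complex genes Cdc20, its activator, and Ube2c, its ubiquitin-conjugating enzyme, were above WT by more than 2-fold in both KO and KI replicate 2. Cdc20 had 17.4 scaled FPKM in KO and 4.67 in WT at 21 d, and 5.35 and 17.2 in KI and 6.85 in WT at 6 weeks. Ube2c had 31.1 in KO and 13.5 in WT at 21 d, and 17.9 and 48.2 in KI and 15.5 in WT at 6 weeks. Cdc20 overlaps Elovl1 on the other strand.

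Proteins of the mitotic chromosome were among the most abundant G2/M members, with Top2a the highest by mean. Top2a, the topoisomerase that untangles sister DNA, had 53.4 scaled FPKM in KO and 22.6 in WT at 21 d, and 25.05 and 86.8 in KI and 25.3 in WT at 6 weeks. Mki67, the gene of the proliferation marker Ki-67, had 25.3 in KO and 13.7 in WT at 21 d, and 15.9 and 49.9 in KI and 16.1 in WT at 6 weeks. For both genes KI replicate 1 and WT at 6 weeks were nearly equal while KI replicate 2 was more than 3-fold higher. Birc5, the survivin subunit of the chromosomal passenger complex, had 35.0 in KO and 13.6 in WT at 21 d, and 15.3 and 39.7 in KI and 22.3 in WT at 6 weeks.

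The 6 mitotic kinases were all highest in KI replicate 2 and next highest in KO. Aurkb, the passenger complex kinase, had 14.5 scaled FPKM in KO and 4.88 in WT at 21 d, and 6.73 and 16.7 in KI and 8.89 in WT at 6 weeks. Bub1b, a spindle checkpoint protein, had 10.6 in KO and 4.17 in WT at 21 d, and 4.23 and 12.6 in KI and 4.10 in WT at 6 weeks. Aurka, Plk1, Bub1 and Ttk had 2.41 to 7.63 in KO and 0.949 to 3.60 in WT at 21 d, and 1.11 to 4.49 in KI replicate 1, 3.49 to 11.7 in KI replicate 2 and 1.45 to 4.26 in WT at 6 weeks. All 6 were higher in KO than in WT at 21 d, by 0.63 to 1.40 on the log2 scale. In KI replicate 2 they were 0.84 to 1.42 above WT at 6 weeks, and in KI replicate 1 they were between -0.36 and 0.27 of it.

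Among the kinetochore and spindle genes the KI replicate 2 library led for every member. Nusap1, which bundles spindle microtubules, had 8.37 scaled FPKM in KO and 4.004 in WT at 21 d, and 4.87 and 18.2 in KI and 4.47 in WT at 6 weeks. Cenpf, a large kinetochore protein, had 4.49 in KO and 1.31 in WT at 21 d, and 1.67 and 6.59 in KI and 1.31 in WT at 6 weeks. Cenpf had wide bounds, 1.59 to 7.40 in KO and 0.69 to 1.92 in WT at 21 d, and 0 to 2.735 in WT at 6 weeks. Bounds hold the error of counting and of assigning reads, and the part of each was not tested. The kinetochore motor Cenpe, the spindle motor Kif11, the cytokinesis kinesin Kif20a and the spindle assembly factor Tpx2 had 2.77 to 8.40 in KO and 1.83 to 5.90 in WT at 21 d. The same 4 genes had 2.23 to 6.22 in KI replicate 1, 6.97 to 23.5 in KI replicate 2 and 1.81 to 6.32 in WT at 6 weeks. Kif11 was 3.77-fold higher in KI replicate 2 than in KI replicate 1, but only 1.42-fold higher in KO than in WT at 21 d. Nusap1 and Kif20a overlap Oip5 and Cdc23 on the other strand.

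Foxm1, the transcription factor that drives many genes of this set, was the member furthest above WT in KI. Foxm1 (chromosome 6, 128362967 to 128375893, GRCm38) had 8.36 scaled FPKM in KO and 3.68 in WT at 21 d, and 6.91 and 14.1 in KI and 3.30 in WT at 6 weeks. It was above WT at 6 weeks by 0.88 and 1.81 on the log2 scale in the KI libraries, and was the only member whose bounds lay above those of that WT library in both. By limma with Benjamini-Hochberg adjustment over all 11296 genes, its difference of 1.35 ± 0.53 (SE, n = 2 KI and 1 WT) had an adjusted p = 0.488, the lowest of the 39 members.

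The level of each set, taken as the median over its members of log2(scaled FPKM + 1), put the libraries in different orders. The S phase set was at 4.64 in KO and 3.97 in WT at 21 d, and at 3.76 and 4.86 in KI and 4.23 in WT at 6 weeks. The G2/M set was at 3.23 in KO and 2.35 in WT at 21 d, and at 2.67 and 4.08 in KI and 2.52 in WT at 6 weeks. The median over all tested genes was 3.33 to 3.38 in the 5 libraries. KI replicate 1 thus had the lowest S median and a G2/M median above those of both WT libraries. Of its 22 G2/M members, 11 were above and 11 below WT at 6 weeks. The G2/M minus S median within a library, which hardly depends on the scaling, was -1.41 in KO and -1.63 in WT at 21 d, and -1.10 and -0.77 in KI and -1.71 in WT at 6 weeks. The ratio of summed scaled FPKM, G2/M over S, was 0.706 in KO and 0.396 in WT at 21 d, and 0.497 and 0.882 in KI and 0.422 in WT at 6 weeks. The SD of the G2/M minus S median within the KI pair was 0.227, more than the gap between KO and WT at 21 d. By both measures the 3 libraries from Malt1 mutants lay above both WT libraries. In KI replicate 1 this came with a low S sum, 329 against 406 in WT at 6 weeks. Its G2/M sum, 164, was below the 171 of that WT library. With 2 or fewer libraries a group, no test was made of this order.

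**Figure D3:**
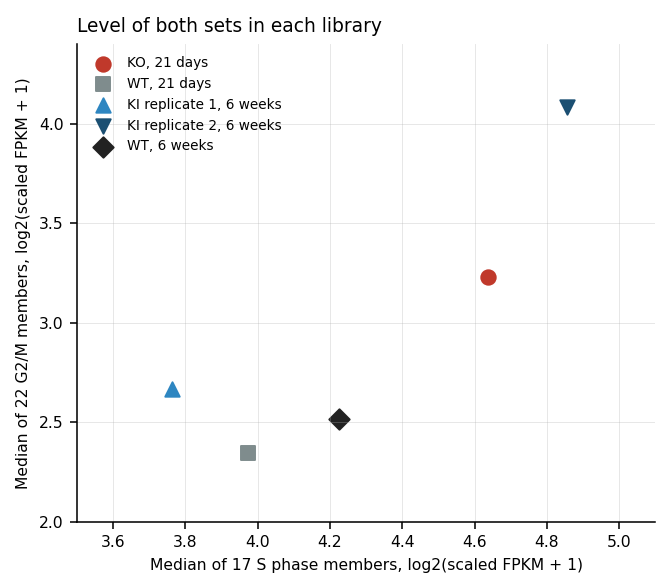
Median log2(scaled FPKM + 1) of the 17 S phase members (x axis) against that of the 22 G2/M members (y axis), 1 point for each of the 5 libraries. KI replicate 2 (4.86 and 4.08) and KO (4.64 and 3.23) are at the upper right, and KI replicate 1 has the lowest S median (3.76) but a G2/M median (2.67) above those of both WT libraries.

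In KO against WT at 21 d, the comparison of deletion with its age-matched control, all 39 members were higher in KO, and the G2/M set more so. The median log2 difference was 0.68 in the S phase set and 1.01 in the G2/M set, while that of all tested genes was 0.02. Past 2-fold, in every such count, means a difference of at least 1 in log2(scaled FPKM + 1). Past 2-fold higher were 2 of 17 S phase members, Chaf1b and Rrm2, and 12 of 22 G2/M members, against 6.13% of all tested genes. None was past 2-fold lower, against 8.14%. By the plain ratio of scaled FPKM, Cdc6, E2f1, Tyms, Nusap1, Plk1 and Ttk were also above 2, at 2.08 to 2.54. The error bounds of KO lay wholly above those of WT for 15 of 17 S phase and 20 of 22 G2/M members, against 24.5% of tested genes. These bounds hold only the error of counting and assigning reads in 1 library, and with 1 library a group there is no replicate check. In a limma fit of the 4 group means, with its spread from the KI pair alone, 0 of 11296 genes passed an adjusted p of 0.05 and 1171 had an unadjusted p under 0.05. Those higher in KO made up 4.51% of all genes, and 1 member was among them.

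Set beside WT at 6 weeks, a library of like depth, KO was less far above. The medians were 0.28 in the S phase set and 0.68 in the G2/M set, and 15 of 17 and 22 of 22 members were higher in KO. No S phase member and 6 of 22 G2/M members were past 2-fold higher, against 3.30% of tested genes, and the bounds of KO lay above those of WT at 6 weeks for 6 and 16 members, against 10.1%. The 6, Cdk1, Top2a, Bub1b, Cdc20, Cenpf and Foxm1, were past 2-fold above both WT libraries, against 2.17% of tested genes. With the other WT library as control, the S phase count was thus 0 in place of 2 and the G2/M count 6 in place of 12. The part of depth and of cell makeup in the KO difference was not tested.

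In KI against WT at 6 weeks, the comparison of the C472A allele with its age-matched control, the 2 KI libraries disagreed. In KI replicate 1 the median log2 difference was -0.51 in the S phase set and -0.01 in the G2/M set. In KI replicate 2 the medians were 0.44 and 1.42. Past 2-fold higher were 0 of 39 members in KI replicate 1, against 7.99% of tested genes, and 3 S phase and 17 G2/M members in KI replicate 2, against 6.10%. In both KI libraries at once the count was 0, against 3.01%. The mean of the KI libraries gave medians of 0.04 in the S phase set and 0.73 in the G2/M set. Both KI libraries were above WT at 6 weeks for 1 S phase member, Tk1, and for 11 G2/M members, and no member was below it in both. Of 11296 tested genes, 4129 were above and 4296 below it in both. The 12 of 39 members above in both are thus no larger a share than that of all tested genes. Taken apart, 1 of 17 S phase members is a smaller share than that of all tested genes, and 11 of 22 G2/M members a larger one. No test was made of these shares.

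The limma test found no member changed in KI. Of 11296 genes 1 was called (0.00885%), and 1211 had an unadjusted p under 0.05, none of them a member. With 1 residual degree of freedom, taken from the KI pair and assumed to hold for the single WT library, a high adjusted p does not show that the genes were alike. Against WT at 21 d, at like depth, KI replicate 1 had medians of -0.10 and 0.21 and KI replicate 2 of 0.74 and 1.69, and all 22 G2/M members were past 2-fold higher in KI replicate 2, against 2.28% of tested genes. The difference between the effects of KO and of KI, each against its own WT library, was tested by limma over all 5 libraries. It was called for 1 of 11296 genes and for 0 members, of which none had an unadjusted p under 0.05 and the lowest adjusted p was 0.337.

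Within the KI group, all 39 members were higher in KI replicate 2 than in KI replicate 1. The median log2 difference was 0.88 in the S phase set and 1.31 in the G2/M set, and 7 and 20 members were past 2-fold higher, against 2.44% of tested genes. The bounds of KI replicate 2 lay above those of KI replicate 1 for 38 of 39 members, all but Tk1, against 24.3% of tested genes. The estimated depths of this pair were alike, at 23.5 and 23.97 M fragments. Treg markers summed to 825 in KI replicate 2 and 895 in KI replicate 1, erythroid markers to 3.56 and 28.3, and myeloid markers to 31.5 and 58.9, with S100a8 and S100a9 at 0 in KI replicate 2. Germinal centre B cell markers, of a cell type that divides fast, summed to 5.36 in KI replicate 2 and 5.95 in KI replicate 1, with S1pr2 at 4.10 and 5.31 and Mybl1 at 1.20 and 0.44 in the same order, and with Rgs13 at 0 in KI replicate 2. The part of other cells in this difference was not tested.

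**Figure D4:**
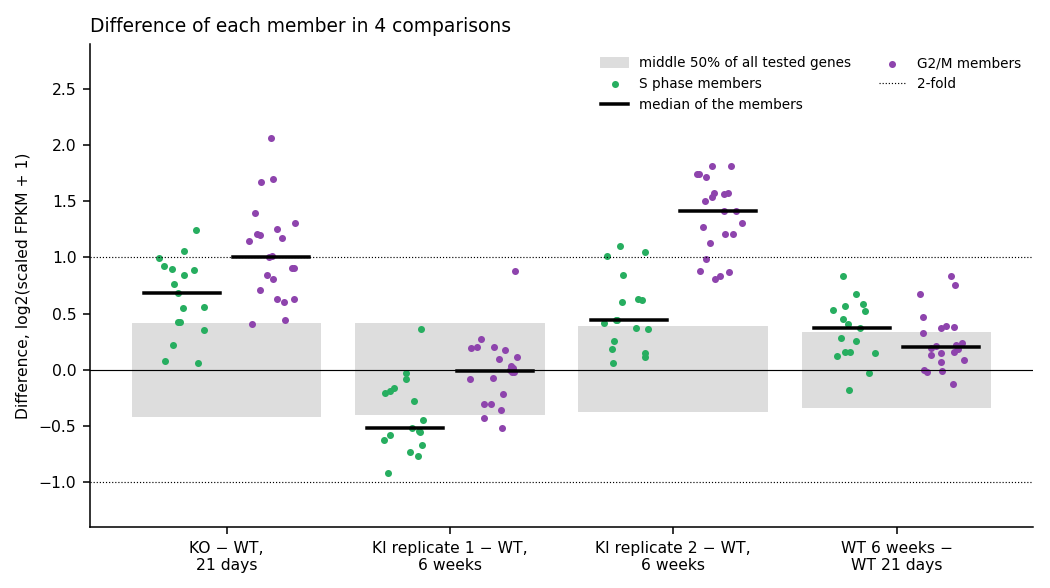
Difference in log2(scaled FPKM + 1) of each S phase member (left in each pair) and each G2/M member (right) in 4 comparisons; black bars are medians, grey boxes the middle 50% of all tested genes, and dotted lines mark 2-fold. The G2/M median is 1.01 in KO, -0.01 in KI replicate 1, 1.42 in KI replicate 2 and 0.20 between the WT libraries.

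WT at 6 weeks against WT at 21 d compared the ages within 1 genotype, with 1 library each and no replicate check. The median log2 difference was 0.37 in the S phase set and 0.20 in the G2/M set, and 15 of 17 and 19 of 22 members were higher at 6 weeks. None was past 2-fold, while 3.38% of tested genes were past 2-fold higher and 5.18% lower. Chaf1b (0.84), Uhrf1 (0.68) and Mcm7 (0.58) differed most in the S phase set, and Ccnb2 (0.83), Aurkb (0.75) and Birc5 (0.68) in the G2/M set. This was the 1 comparison of the 3 with a larger median in the S phase set than in the G2/M set. Coding length moved with this difference, with a Spearman rho of -0.387 over the 39 members and -0.283 over 9872 protein-coding genes, and with KO against WT at 21 d it was -0.323 and -0.299. With the median of genes of like coding length subtracted, the medians for KO against WT at 21 d were 0.76 and 1.07. For KI replicates 1 and 2 against WT at 6 weeks rho was 0.153 and 0.285 over the members. Over the protein-coding genes it was 0.318 and 0.263. The same correction moved the medians of the KI mean against WT at 6 weeks from 0.04 to 0.07 (S) and from 0.73 to 0.58 (G2/M).

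Other genes of the same pathways, from 11 lists, are given by list, and their counts past 2-fold higher stand against the shares of all tested genes, 6.13% in KO, 7.99% in KI replicate 1 and 6.10% in KI replicate 2. Of 26 tested spindle, cytokinesis and mitotic kinesin genes, 4 were past 2-fold higher in KO against WT at 21 d, 0 in KI replicate 1 and 21 in KI replicate 2 against WT at 6 weeks, with medians of 0.78, 0.07 and 1.32. Of 27 kinetochore and checkpoint genes, 6, 0 and 9 were past 2-fold higher, with medians of 0.53, -0.11 and 0.79. Nuf2, a microtubule-binding kinetochore protein, had 6.05 scaled FPKM in KO and 2.45 in WT at 21 d, and 2.49 and 9.22 in KI and 1.79 in WT at 6 weeks. Zwilch, of the checkpoint complex with Rod and Zw10, had 6.64 in KO and 1.74 in WT at 21 d, and 1.83 and 4.17 in KI and 2.06 in WT at 6 weeks. Both lists thus had a higher median in KO and in KI replicate 2 than in KI replicate 1.

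Condensin and cohesin genes, which fold chromosomes and hold sisters together, had a high median in KI replicate 2 and a median near 0 in KO. Of 14 genes, 0 were past 2-fold higher in KO, 0 in KI replicate 1 and 6 in KI replicate 2, with medians of 0.05, 0.22 and 0.89. Ncapg, a condensin I subunit, had 5.70 scaled FPKM in KO and 3.48 in WT at 21 d, and 3.71 and 13.9 in KI and 3.10 in WT at 6 weeks. Smc4, a condensin core subunit, was past 2-fold lower in KO, with 87.6 in KO and 237 in WT at 21 d, and had 170 and 211 in KI and 143 in WT at 6 weeks.

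Among replication lists, the 19 genes of origin licensing and firing had medians of 0.62 in KO, -0.25 in KI replicate 1 and 0.48 in KI replicate 2, and 2 were past 2-fold higher in KO. Gins1, a subunit of the GINS complex of the active helicase, had 7.25 scaled FPKM in KO and 1.71 in WT at 21 d, and 2.32 and 5.45 in KI and 2.95 in WT at 6 weeks. The 20 genes of the replicative polymerases and clamp loader had medians of 0.48, -0.33 and 0.31, with 2 past 2-fold higher in KO. The 14 nucleotide supply genes had medians of 0.20, -0.45 and -0.12, with Nme1, Dut and Dtymk past 2-fold higher in KO. Nme1, a nucleoside diphosphate kinase, had 48.5 in KO and 19.3 in WT at 21 d, and 17.5 and 24.4 in KI and 41.01 in WT at 6 weeks. For Nme1 the WT library at 6 weeks was above both KI libraries, unlike Rrm2. The 14 genes of chromatin assembly and maintenance methylation had medians of 0.28, -0.15 and 0.39, with H2afx the 1 gene past 2-fold higher in KO. In KO the counts for the origin, polymerase and chromatin lists, 2 of 19, 2 of 20 and 1 of 14, are near the 6.13% of all tested genes and are no result about these lists.

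Regulators of the cycle were mixed. The 17 genes of E2F, MuvB and B-Myb had medians of 0.11 in KO, -0.04 in KI replicate 1 and 0.62 in KI replicate 2. In KO, 2 were past 2-fold higher, Lin37 and E2f7, and 2 lower, the pocket proteins Rb1 and Rbl2, which hold E2F targets off. These counts, 2 of 17 each way, are near the 6.13% higher and 8.14% lower of all tested genes and are no result about this list. Rb1 had 5.77 scaled FPKM in KO and 17.99 in WT at 21 d, and 11.1 and 19.7 in KI and 10.5 in WT at 6 weeks. The 23 genes of mitotic entry and the anaphase-promoting complex had medians of 0.36, -0.09 and 0.02, with Fbxo5 and Cks1b the 2 of 23 past 2-fold higher in KO, likewise near the 6.13% of tested genes, and the 8 G1 cyclins and kinases had medians of 0.15, 0.00 and 0.44. Cdk6, a G1 kinase partner of D-type cyclins, had 8.45 in KO and 7.85 in WT at 21 d, and 25.6 and 24.1 in KI and 3.52 in WT at 6 weeks. Cdk6 was nearly equal in both KI libraries, while 27 of the 39 members were past 2-fold apart there.

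The 18 cell cycle inhibitor and quiescence genes lay on the other side in KO against WT at 21 d, with a median of -0.73. Of them, 2 were past 2-fold higher and 7 lower, against 6.13% and 8.14% of tested genes. Against WT at 6 weeks, at like depth, the KO median was -0.27, with 3 past 2-fold higher and 0 lower. Of 11296 tested genes, 373 were past 2-fold higher there and 259 lower. Between the WT ages the median of the list was -0.35, with 0 past 2-fold higher and 2 lower at 6 weeks. The list had a median of 0.29 in KI replicate 1 against WT at 6 weeks, with 4 genes past 2-fold higher. In KI replicate 2 the median was -0.13, with 1 gene past 2-fold higher. Tob2, an antiproliferative protein of the Tob and Btg family, had 18.8 scaled FPKM in KO and 66.1 in WT at 21 d, and 86.3 and 25.8 in KI and 28.2 in WT at 6 weeks. Cdkn1a, the Cdk inhibitor p21, had 10.7 in KO and 5.67 in WT at 21 d, and 12.5 and 2.86 in KI and 2.13 in WT at 6 weeks. In both genes the KI pair ran opposite to the members, with KI replicate 1 the higher. Other inhibitors did not: Cdkn2c had 10.1 and 18.4 in KI replicates 1 and 2 and 7.24 in WT at 6 weeks. Cdkn1c had 0.748 and 1.15 in the same KI order and 2.31 in WT at 6 weeks. Over the 18 genes, the median log2 difference of KI replicate 2 from KI replicate 1 was -0.36, with 5 genes higher in KI replicate 2. Past 2-fold, 1 was higher and 4 lower, against 276 and 468 of 11296 tested genes. Cdkn2a, another Cdk inhibitor, had 3.45 in KO and 0.359 in WT at 21 d, and 1.15 and 0.754 in KI and 0.367 in WT at 6 weeks.

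**Figure D5:**
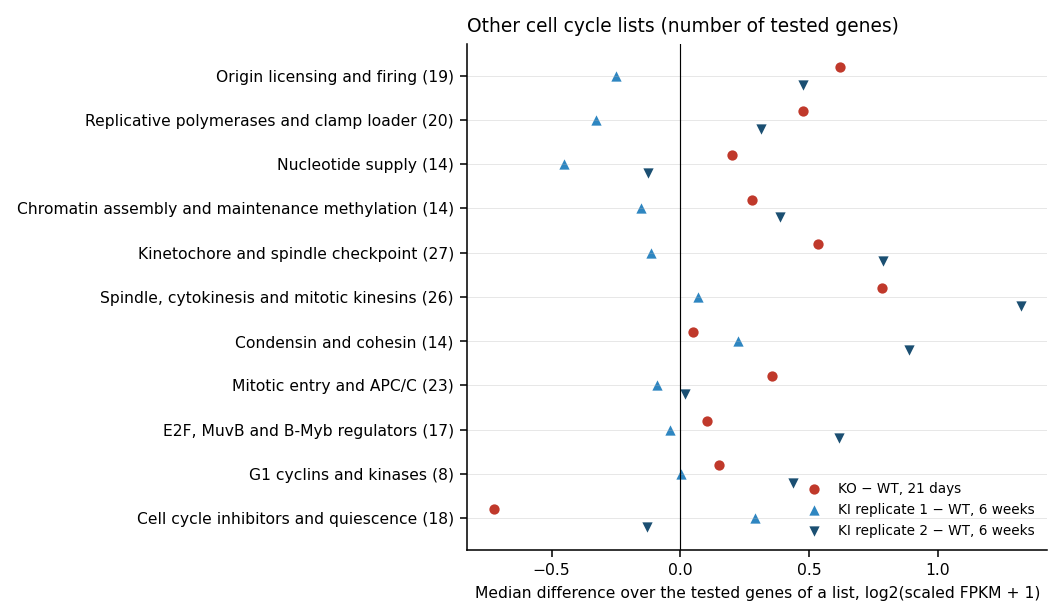
Median difference in log2(scaled FPKM + 1) over the tested genes of 11 other cell cycle lists (number of genes in brackets), for KO against WT at 21 days and for KI replicates 1 and 2 against WT at 6 weeks. Spindle genes reach 1.32 in KI replicate 2 and 0.78 in KO, and the inhibitor list is at -0.73 in KO.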

How the data were processed

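RNA was measured in 5 libraries. The submitters' processing notes name the tools CASAVA, HISAT2 2.1.0 and Cufflinks 2.2.1, with build GRCm38. The authors deposited FPKM for each gene with a lower and an upper bound, per the file headers. These deposited bounds are signal values on the FPKM scale and lie 2 standard errors from the value. The strand setting, read type and annotation release were not given in the sources used here. As counts were not used, the depth had to be read from the bounds of 163 genes with 1 transcript, and is approximate: quartiles over genes were 6.43 to 8.38 M (mega) fragments in KO and 19.6 to 31.4 M in WT at 21 d, and 17.1 to 27.3 and 17.2 to 26.6 M in KI and 5.67 to 7.39 M in WT at 6 weeks.

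Libraries were scaled by the median of ratios over 9874 genes, and the factors that divided the FPKM were 1.15 in KO and 0.876 in WT at 21 d, and 0.868 and 1.01 in KI and 1.15 in WT at 6 weeks. Differences are on log2(scaled FPKM + 1), which understates those of low genes. Genes with a mean of at least 1 were tested (11296, of which 9872 are protein coding). The tests, two-sided, used limma 3.58.1 under R 4.3.3 with its trend option, and p-values were adjusted by Benjamini-Hochberg at a threshold of 0.05. Comparisons of 1 library with 1 were counted by size, at 2-fold. The limma step and the motif search were checked on simulated data or known strings. Of entries with the same symbol the one with the higher mean was used.

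The members, lists and tests were chosen with earlier results of these data known. Members given with every library's value are, in each set, the 5 with the highest mean and the 3 with the largest difference in each of the 3 comparisons (KO, KI and the WT ages), and the rest are given by range, except that Cdc45, Fen1, E2f1, Ccnb1 and Bub1b, outside this rule, are also given in full to complete their roles, a choice made after their values were seen. From each other list, genes were named among the 3 with the largest difference in KO or in KI. Promoters were printed for at most 3 members of each set. Alternatives were another pseudocount, scaling, filter, fold, control, leaving out a KI library, and, added after the data were seen, protein-coding genes only, both WT libraries as the control without 1 KI library, and a correction for coding length. Python 3.11.15 was used for the other steps.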

Additional observations from a re-analysis of the deposited data

How the results depend on the processing

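No paired analysis was possible because the groups share fewer than 2 replicate numbers. The number of members called by limma was 0 under every alternative run, for KI against WT and for the difference between the KO and KI effects. The number of all genes called was less settled. For KI it was 1, and it became 50 with a pseudocount of 0.1, 2 with FPKM as deposited, 0 with no filter, 25 with a mean of at least 5, 0 without trend, 0 with WT at 21 d as the control, 15 with protein-coding genes only, and 0 to 1 when 1 KI library was left out with both WT libraries as the control. For the difference of effects it was 1, and became 89 with a pseudocount of 0.1, 10 with FPKM as deposited, 0 with no filter and 49 with a mean of at least 5. Leaving out a KI library with WT at 6 weeks alone leaves no residual degree of freedom, so counts and medians then have no test.

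In KO against WT at 21 d, the S phase count past 2-fold, 2 in the report, was 5 with a pseudocount of 0.1, 9 with FPKM as deposited, 1 with the correction for coding length, 9 at 1.5-fold, 0 at 3-fold and 0 with WT at 6 weeks as the control. The G2/M count of 12 was 15 with a pseudocount of 0.1 and 17 with FPKM as deposited. It was 20 at 1.5-fold, 3 at 3-fold and 6 with WT at 6 weeks. Of 11296 tested genes, 693 were past 2-fold higher in KO than in WT at 21 d. That number became 1007 with a pseudocount of 0.1, 1509 with FPKM as deposited and 590 with the correction for coding length. With WT at 6 weeks as the control it was 373. All tested genes were not counted at 1.5-fold and 3-fold. Between the WT ages the counts of 0 became 2 (S) and 3 (G2/M) with FPKM as deposited, and likewise at 1.5-fold. With FPKM as deposited, 988 of 11296 tested genes were past 2-fold higher at 6 weeks and 340 lower, in place of 382 and 585. In both KI libraries at once, the G2/M count of 0 became 1 with a pseudocount of 0.1 and 1 at 1.5-fold, and without 1 KI library the counts ran from 0 to 3 (S) and from 0 to 17 (G2/M), with medians from -0.51 to 0.44 and from -0.01 to 1.42. FPKM as deposited shift the median of all genes by 0.35 in KO against WT at 21 d, by 0.35 between the WT ages, and by -0.35 and -0.17 in KI replicates 1 and 2 against WT at 6 weeks. The S phase median of KI against WT at 6 weeks then turned negative, at -0.18. Pcna was below WT at 21 d in KO, at -0.18, after the correction for coding length. The cause of these shifts was not tested. In WT at 6 weeks Cenpf and Bub1 had wide bounds for their level, 0 to 2.735 around 1.31 and 0.64 to 3.35 around 1.99 scaled FPKM.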
